A study of Mus musculus with 11 samples.

Results

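The islet identity transcription factors are DNA-binding proteins that establish and maintain the endocrine cells of the pancreas. The 9 genes examined were Pdx1, Nkx6-1, Nkx2-2, Mafa, Neurod1, Isl1, Pax6, Rfx6 and Insm1, chosen by name with earlier results of these data known. Each gene was followed through every probe set (a group of short oligonucleotides that reports one transcript) carrying that symbol alone. Of these, 7 genes had 15 probe sets among the 45101 of the array, which name 18193 genes in all. Mafa and Rfx6 had no probe set named for them in the platform table and were not analysed here.

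Pdx1 and Nkx6-1 are homeodomain proteins that activate the insulin gene and hold β cells apart from the other islet cells. Nkx2-2, Neurod1, Isl1, Pax6 and Insm1 act in all or most endocrine lineages, and several of them also work in neurons and in the hormone-producing cells of the gut. Loss of any one of them in mice disturbs islet formation or hormone synthesis, and falling levels of Pdx1 and Nkx6-1 mark β cells under stress.

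Whole pancreases of female Balb/C mice aged 30 days gave the RNA, and each of the 11 samples was hybridised to 1 array. The groups were offspring of dams fed an isocaloric 8% protein diet in gestation and injected with streptozotocin (low protein STZ, n = 3), offspring of the same diet given vehicle (low protein sham, n = 3), offspring of dams fed 20% protein and injected with streptozotocin (control STZ, n = 2, numbered 1 and 3), and offspring of those dams given vehicle (control sham, n = 3). Streptozotocin (STZ), a toxin that enters β cells through the glucose transporter Slc2a2, was given at 35 mg per kg each day from day 1 to day 5, and all dams ate the control diet from birth. All mice therefore shared strain, sex, age and postnatal maternal diet. Litters are not given in the labels, so diet and litter cannot be told apart, and where pups shared a dam the p-values are too small. In whole pancreas, fewer cells of a type and less RNA per cell cannot be told apart either.

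Values are log2 signals, so a difference of 1 is 2-fold. Array medians lay between 7.91 and 7.97, and correlations between arrays were 0.9827 to 0.9946 within groups and 0.9778 to 0.9944 between groups. Along the axis of most variance (33.9%), low protein STZ 1 and control sham 1 lay farthest apart. Signals of the 13 acinar markers averaged 13.56 to 14.11 in low protein STZ, 13.88 to 13.94 in low protein sham, 14.18 to 14.20 in control STZ and 14.25 to 14.39 in control sham arrays, and the labelled tissue was thus plain in every array. The limma test over 45037 probe sets called 0 in each of the comparisons (Benjamini-Hochberg adjusted p under 0.05), so the share called was 0% in all of them. At an unadjusted p under 0.05 there were 5723 for low protein STZ against control sham, 4144 for low protein against control among sham mice and 1980 for STZ against sham in the control diet. No member of the identity factors passed in any of the 8 comparisons, and the differences printed with ± carry their standard error (SE).

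The β-cell factor Pdx1 stood lower in all 3 exposed groups than in control sham pancreas on the brighter of its probe sets. On 1422174_at the signals were 8.62, 8.77 and 8.61 in low protein STZ arrays, 8.82, 8.63 and 8.67 in low protein sham arrays, 8.72 and 8.56 in control STZ arrays, and 8.83, 8.995 and 9.01 in control sham arrays. Each exposed array lay under every control sham array, although the highest low protein sham array (8.82) and the lowest control sham array (8.83) were almost level. Taken singly, low protein STZ, low protein sham and control STZ lay wholly under control sham in 8.52%, 8.31% and 7.97% of all probe sets. The share for all groups together was not counted. The group means were 8.67 ± 0.09 (SD, n = 3) in low protein STZ, 8.70 ± 0.10 (n = 3) in low protein sham, 8.64 ± 0.11 (n = 2) in control STZ and 8.95 ± 0.10 (n = 3) in control sham arrays. In order of level, control STZ, low protein STZ and low protein sham came close together within their spread, and control sham stood above them.

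The Pdx1 difference from control sham was -0.28 ± 0.08 for low protein STZ (limma adjusted p = 0.195), -0.24 ± 0.08 for low protein sham (adjusted p = 0.412) and -0.31 ± 0.09 for control STZ (adjusted p = 1). These correspond to 1.21-fold, 1.18-fold and 1.24-fold lower signal. All 3 comparisons use the same control sham arrays, so their likeness is not independent evidence. Within the low protein diet STZ differed from sham by -0.04 ± 0.08, and among STZ mice low protein differed from control by 0.03 ± 0.09, both smaller than their SE. The STZ effect in the low protein diet minus that in the control diet was 0.27 ± 0.13, with a 95% interval of -0.01 to 0.55 (adjusted p = 1). That contrast is the difference of the STZ effects.

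The dimmer Pdx1 probe set, 1422173_at, also had its highest mean in control sham arrays, but its groups overlapped. Its signals were 6.84, 6.86 and 6.25 in low protein STZ arrays, 6.87, 6.91 and 6.86 in low protein sham arrays, 6.73 and 6.84 in control STZ arrays, and 6.83, 6.93 and 6.93 in control sham arrays. Only the third low protein STZ array stood clear of the rest. The differences from control sham were -0.25 ± 0.14 for low protein STZ, -0.02 ± 0.14 for low protein sham and -0.11 ± 0.15 for control STZ. The first was -0.05 without low protein STZ 3, and the last was -0.06 without control STZ 1. Its mean of 6.80 over the 11 arrays lay under 6.866, the limit for dim probe sets used here (the 0.25 quantile of the mean signals).

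**Figure D1:**
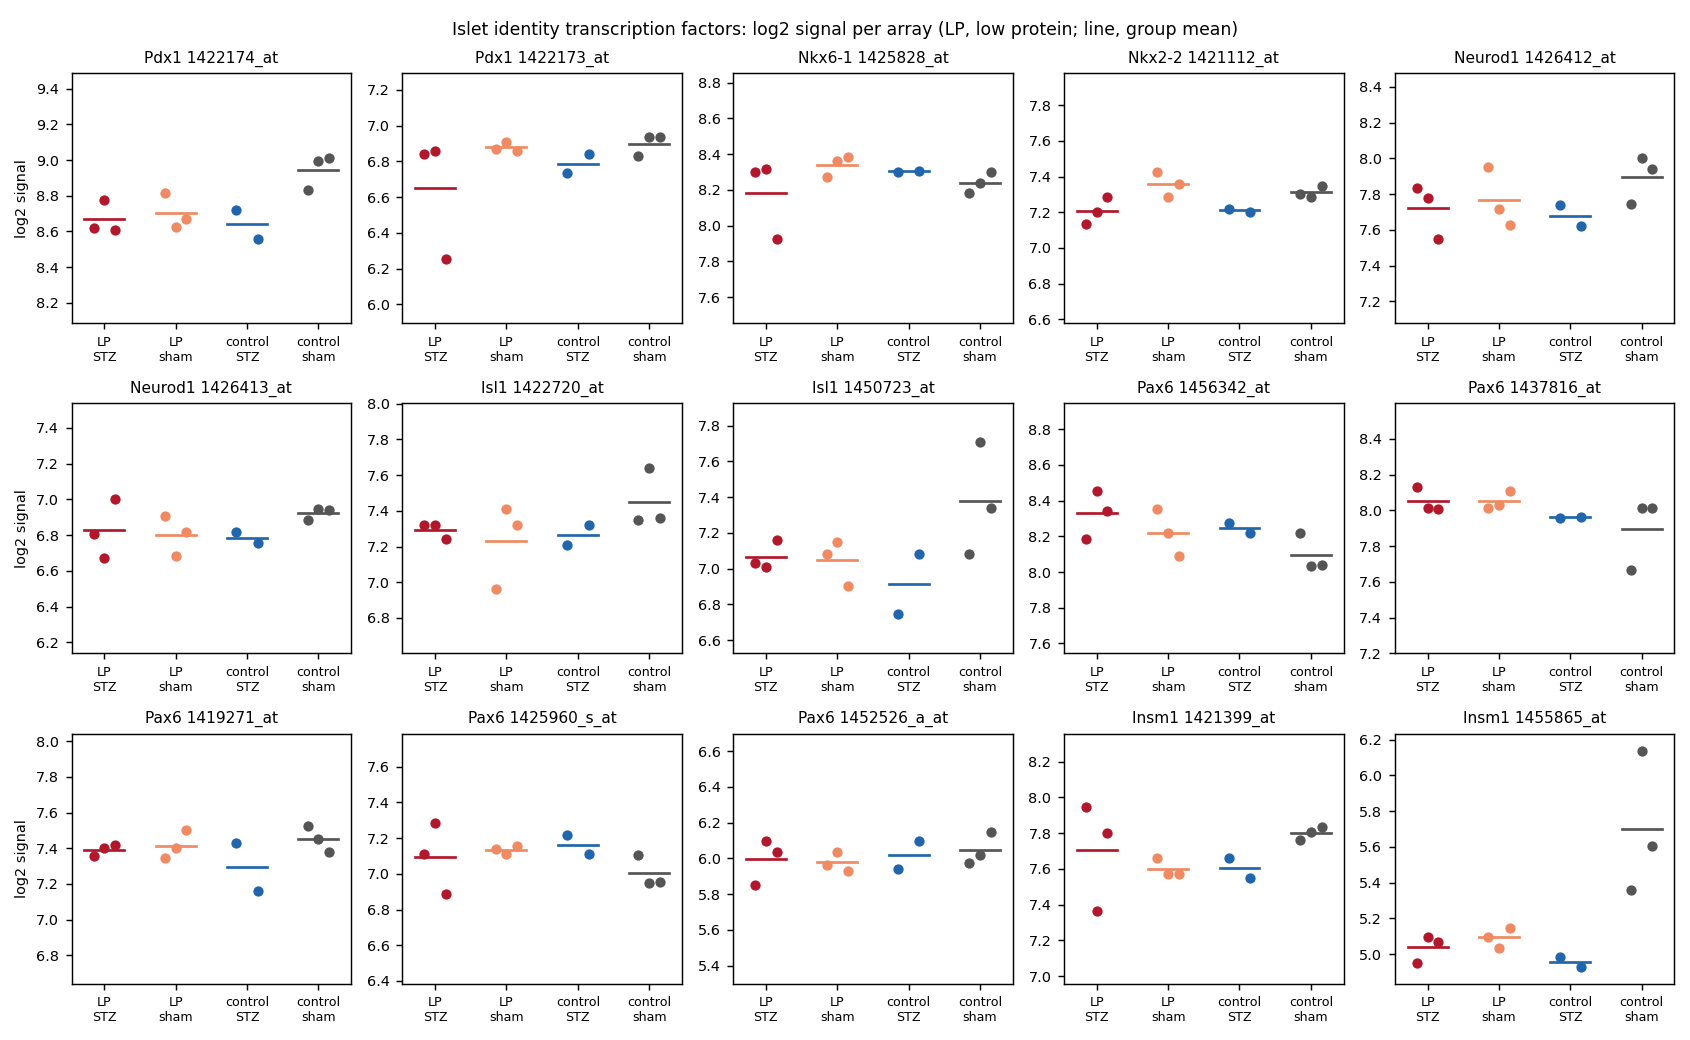
Log2 signal of the 15 probe sets of the 7 measured factors in each array, by group, with the group mean as a line and every panel spanning the same height. Pdx1 1422174_at and the dim Insm1 1455865_at hold all low protein STZ, low protein sham and control STZ arrays under all control sham arrays, whereas the groups overlap in most other panels. Taken singly, these groups lay wholly under control sham in 8.52%, 8.31% and 7.97% of all probe sets. The share for all groups together was not counted.

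The promoters of Pdx1, of its fellow β-cell factor Nkx6-1 and of Iapp, a known Pdx1 target encoding the amyloid peptide secreted with insulin, were searched for the short motifs such factors read. They are shown because the brighter Pdx1 probe set and Iapp followed like profiles over the 11 arrays (r = 0.90, as a description). Nkx6-1 and Iapp had r = -0.13. The dimmer Pdx1 probe set did not share this pattern, with r = 0.34 with Iapp and 0.87 with Nkx6-1. Between the Pdx1 probe sets r was 0.42. TAAT is the core bound by homeodomains such as those of Pdx1, Nkx6-1, Isl1 and Pax6, and CANNTG is the E box bound by Neurod1 with its partners. Each promoter runs from 250 bases before to 50 after the gene's start, from RefSeq on GRCm38.p6, and capitals mark matches to either motif on either strand. CANNTG reads alike on both strands, and TAAT matches that overlap (TAATTA) count on each strand. In all 32851 promoters of this length, 58% held TAAT and 72.3% held CANNTG, with a median of 1 match for each.
Pdx1, chr5:147269847-147270146 (+ strand): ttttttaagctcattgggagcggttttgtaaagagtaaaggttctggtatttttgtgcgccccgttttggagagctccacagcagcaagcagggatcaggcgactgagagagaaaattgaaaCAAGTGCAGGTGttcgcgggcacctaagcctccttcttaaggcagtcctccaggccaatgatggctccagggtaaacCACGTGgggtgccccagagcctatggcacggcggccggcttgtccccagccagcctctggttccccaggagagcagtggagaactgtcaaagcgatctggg
Nkx6-1, chr5:101664662-101664961 (- strand): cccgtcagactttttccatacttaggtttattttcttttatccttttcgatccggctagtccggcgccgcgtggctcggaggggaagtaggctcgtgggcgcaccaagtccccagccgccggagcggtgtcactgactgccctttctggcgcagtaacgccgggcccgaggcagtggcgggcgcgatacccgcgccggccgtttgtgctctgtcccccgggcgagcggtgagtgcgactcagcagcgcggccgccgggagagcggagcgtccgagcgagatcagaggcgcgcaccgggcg
Iapp, chr6:142298175-142298474 (+ strand): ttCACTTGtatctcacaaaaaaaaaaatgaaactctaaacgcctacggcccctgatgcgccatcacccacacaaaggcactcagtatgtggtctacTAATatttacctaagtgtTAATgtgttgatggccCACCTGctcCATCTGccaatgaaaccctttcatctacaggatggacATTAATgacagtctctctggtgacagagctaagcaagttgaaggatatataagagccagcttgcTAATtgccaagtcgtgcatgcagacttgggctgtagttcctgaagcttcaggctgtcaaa
The Iapp promoter held 5 TAAT and 3 CANNTG matches, the Pdx1 promoter 0 and 3, and the Nkx6-1 promoter 0 of either. Among the other factors the Rfx6 promoter held 5 TAAT matches, as many as Iapp, the Isl1 promoter and each of the 2 Pax6 promoters held 2, Nkx2-2 held 1 and Neurod1 held 0. G6pc2, another islet target, had 2 promoters, with 1 and 3 TAAT matches and 1 and 4 CANNTG matches. A match describes letters in this window and is no evidence of binding, and the sequence is that of the reference strain, not of Balb/C.

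Nkx6-1, which represses non-β fates, showed no order of this kind. On its single probe set, 1425828_at, the signals were 8.30, 8.32 and 7.93 in low protein STZ arrays, 8.27, 8.36 and 8.38 in low protein sham arrays, 8.30 and 8.31 in control STZ arrays, and 8.18, 8.24 and 8.30 in control sham arrays. The third low protein STZ array was the lowest of all, and the remaining arrays lay within 8.18 to 8.38. The differences from control sham were -0.06 ± 0.10 for low protein STZ, 0.10 ± 0.10 for low protein sham and 0.06 ± 0.11 for control STZ (limma adjusted p = 0.861, 0.822 and 1). The first was 0.07 without low protein STZ 3. The 95% interval was -0.28 to 0.16 for low protein STZ and -0.18 to 0.31 for control STZ.

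Nkx2-2, needed for β cells and for part of the α and PP cells, was lower after STZ in both diets by small amounts. On 1421112_at the signals were 7.13, 7.20 and 7.29 in low protein STZ arrays against 7.42, 7.29 and 7.36 in low protein sham arrays. They were 7.22 and 7.20 in control STZ arrays against 7.30, 7.28 and 7.35 in control sham arrays. The control STZ arrays lay under all control sham arrays, while in the low protein diet the highest STZ and the lowest sham array had the same signal. The difference of STZ from sham was -0.15 ± 0.06 in the low protein diet and -0.10 ± 0.07 in the control diet, and averaged over both diets it was -0.13 ± 0.05 (unadjusted p = 0.0266, limma adjusted p = 1; 2.19% of all probe sets were lower and 1.04% higher at an unadjusted p under 0.05). Of the 15 member probe sets, 3 were lower and 0 higher at such an unadjusted p in this averaged comparison. Besides Nkx2-2 these were Insm1 1455865_at (-0.40 ± 0.12) and Pdx1 1422174_at (-0.17 ± 0.06). For Nkx2-2, low protein differed from control by 0.04 ± 0.06 among sham mice.

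Neurod1, a basic helix-loop-helix factor that activates the insulin gene with Pdx1, had signals on 1426412_at of 7.83, 7.78 and 7.55 in low protein STZ arrays, 7.95, 7.71 and 7.63 in low protein sham arrays, 7.74 and 7.62 in control STZ arrays, and 7.74, 8.00 and 7.94 in control sham arrays. Both control STZ arrays lay under the control sham arrays, the first by less than 0.01, and both low protein groups overlapped control sham. The differences from control sham were -0.17 ± 0.11 for low protein STZ, -0.13 ± 0.11 for low protein sham and -0.22 ± 0.12 for control STZ. The first was -0.09 without low protein STZ 3, and the second ranged from -0.22 without low protein sham 1 to -0.06 without low protein sham 3 (-0.21 without control sham 1, -0.08 without control sham 2). The second probe set, 1426413_at, was dim (mean 6.84) and gave -0.10 ± 0.09, -0.12 ± 0.09 and -0.14 ± 0.10 in the same order. Of these, the first was -0.02 without low protein STZ 2 and -0.19 without low protein STZ 3, and the second was -0.06 without low protein sham 2. Both probe sets thus pointed the same way in those comparisons, and neither passed.

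Isl1, a LIM homeodomain factor of all islet endocrine cells, was highest in the second control sham array on both probe sets. On 1450723_at the signals were 7.03, 7.01 and 7.16 in low protein STZ arrays, 7.08, 7.15 and 6.90 in low protein sham arrays, 6.74 and 7.08 in control STZ arrays, and 7.08, 7.71 and 7.34 in control sham arrays. The lowest control sham array was level with arrays of both sham and STZ groups elsewhere, so the groups overlapped. The differences from control sham were -0.31 ± 0.15 for low protein STZ, -0.33 ± 0.15 for low protein sham and -0.46 ± 0.16 for control STZ (adjusted p = 0.42, 0.54 and 1). Without the second control sham array these were -0.15, -0.17 and -0.30. On the brighter 1422720_at the differences were -0.15 ± 0.12, -0.22 ± 0.12 and -0.18 ± 0.13 in the same order, and 4 arrays shared one signal of 7.32. Without control sham 2 the first of these was -0.06 and the last -0.09, and without low protein sham 1 the second was -0.08.

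Insm1, a zinc finger transcriptional repressor that endocrine differentiation requires, held the largest difference of all the member probe sets, on a dim one. On 1455865_at the signals were 4.95, 5.10 and 5.07 in low protein STZ arrays, 5.10, 5.04 and 5.15 in low protein sham arrays, 4.99 and 4.93 in control STZ arrays, and 5.36, 6.14 and 5.61 in control sham arrays. All 8 exposed arrays lay within 4.93 to 5.15, below every control sham array, and the control sham arrays spanned 0.78. Group by group, 8.52% (low protein STZ), 8.31% (low protein sham) and 7.97% (control STZ) of all probe sets lay wholly below control sham. Its mean of 5.22 was under the limit for dim probe sets.

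The differences of this Insm1 probe set from control sham were -0.66 ± 0.16 for low protein STZ (limma adjusted p = 0.0981), -0.61 ± 0.16 for low protein sham (adjusted p = 0.272) and -0.74 ± 0.17 for control STZ (adjusted p = 1). The difference of the STZ effects was 0.69 ± 0.23 (unadjusted p = 0.0142, adjusted p = 1), the only member value with an unadjusted p under 0.05 in that comparison (1.69% of all probe sets higher, 2.03% lower). With array weights the first value was -0.62 (limma adjusted p = 0.0488), the only member call under any alternative. Without control sham 2 the values were -0.44, -0.39 and -0.52, and the difference of the STZ effects was 0.47.

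The brighter Insm1 probe set, 1421399_at, gave smaller values. Its signals were 7.95, 7.37 and 7.80 in low protein STZ arrays, 7.66, 7.57 and 7.57 in low protein sham arrays, 7.66 and 7.55 in control STZ arrays, and 7.76, 7.81 and 7.83 in control sham arrays. Low protein sham and control STZ arrays lay under all control sham arrays, and low protein STZ arrays spread on both sides of them. The differences from control sham were -0.10 ± 0.12, -0.20 ± 0.12 and -0.20 ± 0.14 for low protein STZ, low protein sham and control STZ. The first changed sign with single arrays, being -0.22 without low protein STZ 1 and 0.07 without low protein STZ 2.

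Pax6, a paired and homeodomain factor of all endocrine cells that binds the glucagon, insulin and somatostatin genes, had 5 probe sets that did not move together. On the brightest, 1456342_at, the signals were 8.19, 8.45 and 8.34 in low protein STZ arrays, 8.35, 8.22 and 8.09 in low protein sham arrays, 8.27 and 8.22 in control STZ arrays, and 8.22, 8.03 and 8.04 in control sham arrays. Low protein STZ was higher than control sham by 0.23 ± 0.09 (unadjusted p = 0.0314, limma adjusted p = 0.332), and the groups overlapped. For the same pair of groups the other 4 probe sets gave 0.15 ± 0.09 (1437816_at), -0.06 ± 0.08 (1419271_at), 0.09 ± 0.10 (1425960_s_at) and -0.05 ± 0.08 (1452526_a_at). For low protein sham the 5 probe sets, in the order named, gave 0.12 ± 0.09, 0.15 ± 0.09, -0.04 ± 0.08, 0.13 ± 0.10 and -0.07 ± 0.08, and for control STZ 0.15 ± 0.10, 0.06 ± 0.10, -0.16 ± 0.09, 0.16 ± 0.11 and -0.03 ± 0.09. The sign thus differed among probe sets of one gene, and the largest difference in size was 0.23.

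**Figure D2:**
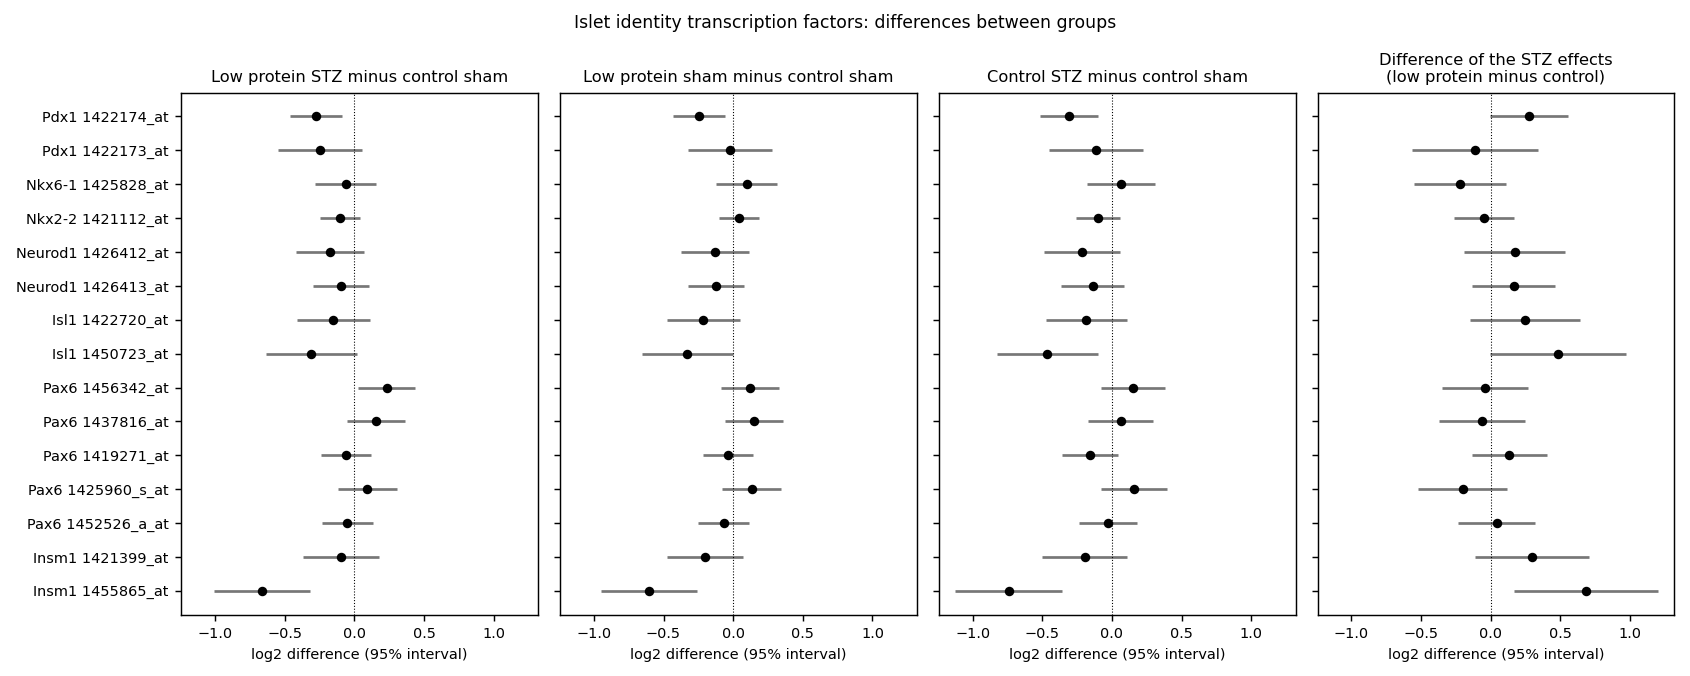
Log2 differences (points) with 95% intervals from the limma fit (lines) for the 15 probe sets, in the low protein STZ, low protein sham and control STZ groups against control sham and for the difference of the STZ effects. Pdx1 1422174_at and Insm1 1455865_at have intervals below 0 in the first 3 panels, which share the control sham arrays, and Insm1 1455865_at has one above 0 in the last.

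Counted over the 15 probe sets, more were lower than higher in the comparisons with control sham. By gene, on the brightest probe set of each of the 7, the balance was closer in low protein sham, with 4 lower and 3 higher. It was 6 lower and 1 higher in low protein STZ, and 5 lower and 2 higher in control STZ. For STZ against sham in the control diet, 11 were lower and 4 higher, 3 had an unadjusted p under 0.05 and a negative sign (2.45% of all probe sets), and the arrays did not overlap, with STZ lower, in 7 (7.97% of all); 0 had such a p and were higher (1.94% of all), and 1 separated with STZ higher (8.58% of all). Over all probe sets 49% had a negative difference in that comparison, against 53.5% for low protein among sham mice and 53.8% for low protein STZ. For low protein against control among sham mice, 10 were lower, 3 had an unadjusted p under 0.05 and were lower (5.98% of all) and 0 were higher (3.22% of all). There 3 did not overlap on the lower side (8.31% of all) and 1 on the higher side (5.86% of all). For low protein STZ against control sham, 12 were lower, 2 had an unadjusted p under 0.05 and were lower (8.88% of all) and 1 was higher (3.82% of all), and 3 did not overlap on the lower side (8.52% of all), against 0 on the higher side (5.58% of all). Probe sets of one gene share its transcript, so these counts are not of independent items.

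The comparisons without control sham arrays gave fewer such members. For STZ against sham in the low protein diet, 8 probe sets were lower and 7 higher, 1 had an unadjusted p under 0.05 (Nkx2-2, lower; 1.52% of all lower, 0.953% higher), and 0 separated the arrays on either side (4.15% of all lower, 3.1% higher). For low protein against control among STZ mice, 5 were lower and 10 higher, and 0 had an unadjusted p under 0.05 in either direction (5.49% of all lower, 2.08% higher). There 1 separated the arrays on the higher side (Pax6 1437816_at; 8.59% of all) and 0 on the lower side (12.6% of all). Over the 8 comparisons no member difference was larger than 0.74 in size.

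With 1 probe set per gene, the brightest, the median over the 7 factors was -0.11 for low protein STZ, -0.13 for low protein sham and -0.18 for control STZ, each against control sham. With 1 array left out these ranged from -0.17 (without low protein STZ 1) to -0.09, from -0.21 (without control sham 1) to -0.06 (without low protein sham 3; -0.08 without low protein sham 1 or control sham 2), and from -0.22 to -0.11 (without control sham 2). The medians over all genes with a probe set were -0.03, -0.02 and 0.00. Within the low protein diet the median for STZ against sham was -0.04, beside -0.01 over all genes.

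The genes these factors are known to drive differed from control sham by larger amounts. This list and those below were chosen with earlier results of these data known. Their counts beside the shares of all probe sets are therefore a description and no test. Of 15 measured targets, 13 were lower in low protein STZ, 14 in low protein sham and 14 in control STZ arrays, while 2, 1 and 1 were higher. The medians were -0.43, -0.33 and -0.34, and 0 passed in any of the 3. Negative differences made up 53.8%, 53.5% and 49% of all probe sets in these comparisons. The targets at an unadjusted p under 0.05 were 8, 8 and 5, all lower, where 8.88%, 5.98% and 2.45% of all probe sets were. Without control sham 2 the control STZ median was -0.20. The targets named next each differed by more in size than the list medians, so they do not stand for the whole list. The targets that were higher, and values of Gcg, Sst and Ppy, are not given in the text. Ins2, which encodes insulin, had signals of 12.89, 13.57 and 12.93 in low protein STZ arrays, 14.47, 13.91 and 13.27 in low protein sham arrays, 13.10 and 13.41 in control STZ arrays, and 14.81, 15.24 and 14.86 in control sham arrays. Its differences from control sham were -1.84 ± 0.28, -1.09 ± 0.28 and -1.72 ± 0.31 in that order, against -0.28, -0.24 and -0.31 for Pdx1. Slc2a2, the glucose transporter of β cells, differed by -0.92 ± 0.17, -0.77 ± 0.17 and -0.94 ± 0.19. Iapp differed by -2.004 ± 0.34, -1.66 ± 0.34 and -1.92 ± 0.39, and G6pc2, the islet glucose-6-phosphatase subunit, by -1.999 ± 0.29, -1.88 ± 0.29 and -2.39 ± 0.33. The smallest limma adjusted p of these genes was 0.0754 for low protein STZ, 0.259 for low protein sham and 0.937 for control STZ.

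**Figure D3:**
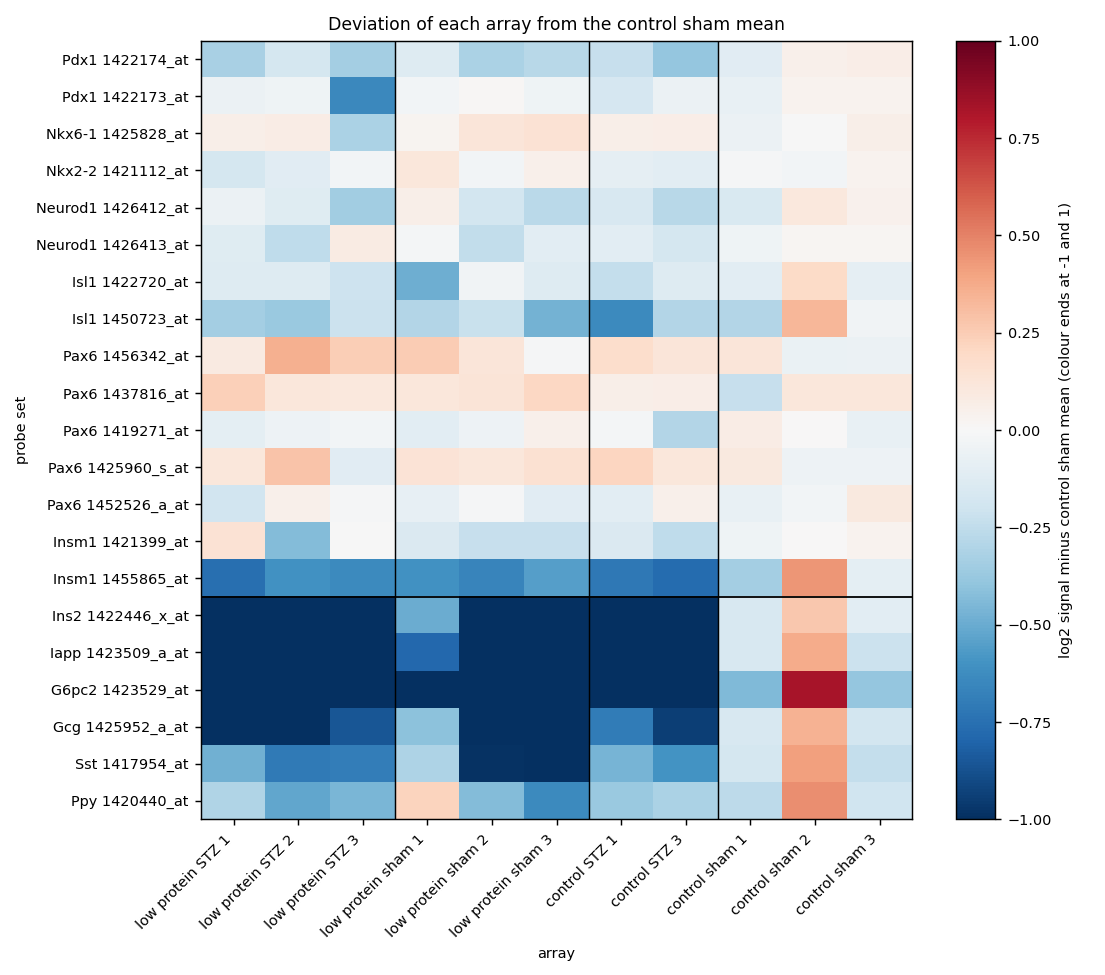
Deviation of each array's log2 signal from the control sham mean, with the 15 member probe sets above the line and Ins2, Iapp, G6pc2, Gcg, Sst and Ppy below it (colour stops at -1 and 1). Ins2, Iapp and G6pc2 are deep blue in most low protein STZ, low protein sham and control STZ arrays, Pdx1 1422174_at is pale blue in all 8 and Insm1 1455865_at a stronger blue, and control sham 2 is the highest array of all for both Isl1 probe sets, Insm1 1455865_at and Ins2.

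Granule proteins shared by all endocrine cells also lay lower than in control sham arrays. Of 11 measured, 11 were lower in low protein STZ, 10 in low protein sham and 10 in control STZ arrays than in control sham arrays, with medians of -0.48, -0.36 and -0.49, and 0 passed. Over all probe sets 53.8%, 53.5% and 49% had a negative difference. At an unadjusted p under 0.05, 6 granule proteins were lower in each comparison, where 8.88%, 5.98% and 2.45% of all probe sets were. In control STZ arrays 1 was higher at such a p (1.94% of all). The mean signal of the granule proteins ranged from 8.88 to 8.93 in low protein STZ, 8.79 to 9.31 in low protein sham, 8.94 to 8.95 in control STZ and 9.30 to 9.59 in control sham arrays. The part of endocrine cell content in the values of the factors was not tested.

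Markers of neurons, which can also express Neurod1, Isl1 and Insm1, averaged 7.64 to 7.71 in low protein STZ, 7.64 to 7.71 in low protein sham, 7.62 to 7.75 in control STZ and 7.59 to 7.72 in control sham arrays. Of the 11 measured, 6 were above the limit for dim probe sets. Markers of gut epithelium, where Pdx1, Pax6 and Neurod1 are active, averaged 8.00 to 8.04, 7.95 to 8.02, 8.02 to 8.03 and 7.91 to 8.09 in the same group order. The neuron marker ranges overlapped among all groups, and each gut marker range overlapped that of control sham. The gut marker range of low protein sham ended at 8.017, just under the start of control STZ at 8.024. The acinar markers were lower in both low protein groups than in either control group. Endothelial markers averaged 8.53 to 8.67 in low protein STZ, 8.46 to 8.68 in low protein sham, 8.75 to 8.80 in control STZ and 8.84 to 8.89 in control sham arrays, and were likewise lower with the low protein diet. Of 8 stromal markers, 7 were lower than in control sham arrays in each of the low protein STZ, low protein sham and control STZ groups, with medians of -0.44, -0.35 and -0.28, and 0 passed. At an unadjusted p under 0.05 there were 3, 3 and 0, all lower, where 8.88%, 5.98% and 2.45% of all probe sets were. The mean signal of the stromal markers ranged from 9.83 to 10.05 in low protein STZ, 9.75 to 10.14 in low protein sham, 10.05 to 10.08 in control STZ and 9.98 to 10.74 in control sham arrays. The ranges of the duct and leukocyte markers overlapped between low protein STZ and control sham arrays. The part of these cell types in the values of the factors was not tested.

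Other transcription factors of the endocrine lineage went both ways, with more higher than lower in each comparison with control sham. Over all probe sets the share higher was 46.2% for low protein STZ, 46.5% for low protein sham and 51% for control STZ. Of 23 measured of 28 listed, 9 were lower and 14 higher in low protein STZ, 7 lower and 16 higher in low protein sham, and 9 lower and 14 higher in control STZ arrays than in control sham arrays, and 0 passed in either direction. Their medians were 0.03, 0.02 and 0.04, of which the first was -0.0009 without control sham 3 and the last -0.0073 without control STZ 1. Isl2, a LIM homeodomain relative of Isl1, was higher than control sham by 0.29 ± 0.09 in low protein STZ, 0.37 ± 0.09 in low protein sham and 0.19 ± 0.10 in control STZ arrays (limma adjusted p = 0.184, 0.259 and 1). No array of these groups overlapped control sham, a separation that 5.58%, 5.86% and 8.58% of all probe sets showed on the higher side. Foxa2, a forkhead factor upstream of Pdx1, differed by -0.40 ± 0.14, -0.25 ± 0.14 and -0.34 ± 0.16 (adjusted p = 0.269, 0.646 and 1). Irx1, an α-cell homeodomain factor, differed by 0.15 ± 0.12, 0.32 ± 0.12 and 0.04 ± 0.13 in the same order (adjusted p = 0.661, 0.438 and 1). Neurog3, which starts endocrine differentiation in the embryo, differed by 0.04 ± 0.12 in low protein STZ, 0.02 ± 0.12 in low protein sham and -0.19 ± 0.13 in control STZ arrays (adjusted p = 0.922, 0.977 and 1).

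**Figure D4:**
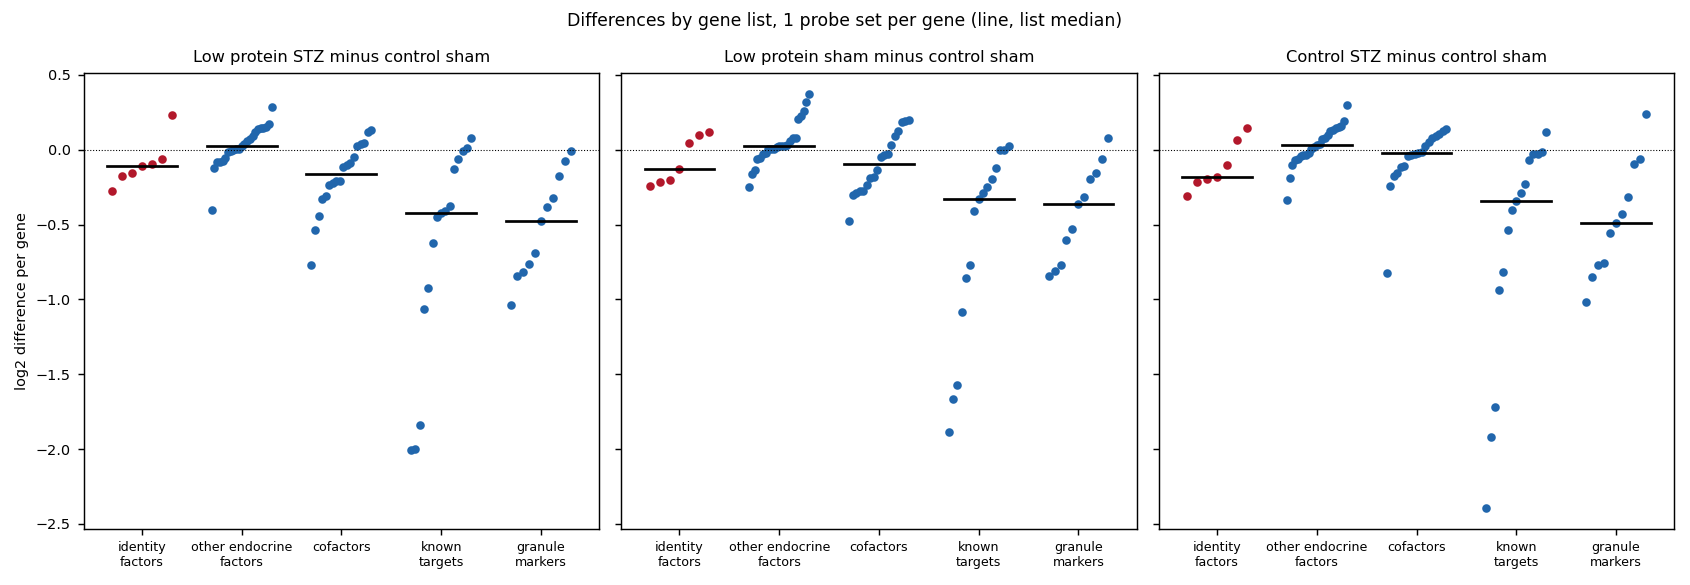
Log2 difference per gene (points, 1 probe set each) from control sham in low protein STZ, low protein sham and control STZ arrays, for the identity factors, other endocrine factors, cofactors, known targets and granule markers, with the list median as a line. The identity factors span a narrow range, with medians of -0.11, -0.13 and -0.18, while among targets G6pc2 reaches -1.88 in low protein sham and -2.39 in control STZ arrays.

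Likeness of pattern was measured as Pearson's r over the 11 arrays between each factor's brightest probe set and 15895 other genes above the dim limit, as a description. The arrays share groups, so r contains the group differences, and the highest of many values is high by selection. For Pdx1 the 3 nearest genes were Lmo1 (0.93), Iapp (0.90) and Rflnb (0.90). For Neurod1 they were Scg5 (0.91), a granule protein, Styk1 (0.91) and Ccdc14 (0.90). Nkx6-1 was nearest to Auts2 (0.95), Tmem252 (0.93) and Lhb (0.93), and Isl1 to Tspy-ps, Glra4 and Krt6a (0.96 each). Nkx2-2 was nearest to Pard6g (0.88), Pax6 to Lsm12 (0.87) and Insm1 to Polk (0.84). No factor had another of the 7 among its 3 nearest genes, a list that does not measure likeness between factors. Between brightest probe sets of the factors, r ran from -0.61 (Isl1 with Pax6) to 0.81 (Pdx1 with Neurod1). Over all probe sets of different factors it ran from -0.78 (Neurod1 1426413_at with Pax6 1425960_s_at) to 0.87 (Pdx1 1422173_at with Nkx6-1). Low protein STZ 3 was the lowest array on both probe sets of that last pair. The brighter Pdx1 1422174_at had r = 0.06 with Nkx6-1. Pdx1 1422174_at and Isl1 1450723_at each had r = 0.85 with Insm1 1455865_at. Whether the factors moved together was not tested.

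Few arrays limit the precision, and for 4 of the probe sets dim signal does too. Of the 15 probe sets, 11 lay above the dim limit, and 12 held a signal repeated exactly on several arrays, against 55.9% of all probe sets. Within groups the SD of a member probe set was between 0.06 and 0.22, and the range over all 11 arrays was 0.29 to 1.21. The third low protein STZ array was the lowest of the 11 for 4 probe sets, those being Pdx1 1422173_at, Nkx6-1 1425828_at, Neurod1 1426412_at and Pax6 1425960_s_at.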

How the data were processed

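Total RNA of 11 pancreases was labelled with biotin and hybridised to Affymetrix arrays. For each probe set the authors deposited a normalized signal on the log2 scale. The submitters' processing notes list RMA and Partek 6.5, with no role or order. The sources used here give no genome build and no detection calls.

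Symbols came from GEO's annotation of the platform (34958 with 1 symbol, 932 with several, 9211 with none). The 64 control probe sets were left out, and the other 45037 were all tested, without a filter. One mean per group was fitted with limma 3.58.1 in R 4.3.3 (lmFit, eBayes, two-sided), with Benjamini-Hochberg adjustment over all of them and a threshold of 0.05. A gene's representative is its probe set with the highest mean. All probe sets of the members are named, up to 4 genes with the smallest p from each list, and 3 genes of nearest pattern. The fit was tested on simulated data. Figures and the motif search used Python 3.11.15. The members and lists were chosen with earlier results of these data known.

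Replicate numbers were taken from the labels. Deviations of same-numbered arrays from their group means correlated between -0.31 and 0.27 (15 pairs), so the numbers were not taken to pair the samples. Alternatives were a replicate block, only the 2 groups compared, trend and robust moderation, array weights, cyclic loess, a filter on dim probe sets, 1 probe set per gene and each array left out. The labels give separate biological replicates, and the number of arrays limits the precision.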

Additional observations from a re-analysis of the deposited data

How the results depend on the processing

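No member probe set passed under any alternative, except Insm1 1455865_at for low protein STZ against control sham with array weights (-0.62, limma adjusted p = 0.0488), a setting under which 612 probe sets passed in that comparison. With the replicate number as a block 0 probe sets passed in each comparison, as in the fit without it, and it moved no member across the threshold. Counts of all probe sets that passed depended on single arrays in 3 comparisons. When 1 array was left out they ranged from 0 to 263 (without low protein STZ 1) for low protein against control among sham mice, from 0 to 806 (without low protein STZ 3) for low protein STZ against control sham, and from 0 to 480 (without low protein STZ 3) for low protein against control over both injections. Leaving out control sham 3 gave 1, 3 and 5 in the same order of comparisons, leaving out control sham 2 gave 264 in the second, and leaving out low protein STZ 1 gave 310 in the third. Array weights gave 520 in the last. Without low protein STZ 1 and control sham 1, which lay farthest apart on the main axis of variance, an alternative chosen after seeing the data, the count was 62 for low protein against control among sham mice and 133 over both injections.

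Among differences larger than their SE, some changed sign. With 1 array left out, Nkx6-1 for low protein against control among STZ mice ranged from -0.19 to 0.0047 (without low protein STZ 3), and Pax6 1419271_at in the same comparison from -0.037 (without control STZ 3) to 0.23. For the difference of the STZ effects Pax6 1419271_at ranged from -0.0015 (without control STZ 3) to 0.27. Pax6 1437816_at for low protein STZ against control sham was -0.0046 without low protein STZ 1 and control sham 1. The median of the other endocrine factors ranged from -0.0073 (without control STZ 1) to 0.048 for control STZ and from -0.0009 (without control sham 3) to 0.060 for low protein STZ, both against control sham. The cause was not tested. Pdx1 1422174_at stayed negative against control sham, from -0.34 to -0.24 for low protein STZ, -0.30 to -0.20 for low protein sham and -0.39 to -0.23 for control STZ. Dim signal limits 4 of the 15 probe sets.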

Other observations

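Cofactors of the islet factors, which bind them or change chromatin with them, were measured for all 18 genes listed. Of these, 13 were lower in low protein STZ, 12 in low protein sham and 11 in control STZ arrays than in control sham arrays, and limma called 0 in each. Their medians were -0.16, -0.09 and -0.02. The cofactors below were named for a small p in the comparison given, and their other comparisons are not given here. Dnmt3a, the DNA methyltransferase that silences non-β genes with Nkx2-2, differed from control sham by 0.19 ± 0.07 in low protein sham and 0.13 ± 0.08 in control STZ arrays (adjusted p = 0.43 and 1). Tle2, a Groucho corepressor, differed by -0.23 ± 0.09 in low protein STZ arrays (adjusted p = 0.306). Id2, which sequesters partners of Neurod1, differed by -0.77 ± 0.34 in low protein STZ and -0.82 ± 0.38 in control STZ arrays (adjusted p = 0.383 and 1). For Ldb1, the LIM partner of Isl1, the STZ effect in the low protein diet minus that in the control diet was -0.32 ± 0.14 (adjusted p = 1).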
